A study of Homo sapiens with 4 samples.

Results

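The hypoxia response and glycolysis genes described here are 41 genes that cells use to sense oxygen, to take up and burn glucose and to adjust to low oxygen. They were chosen by name and not by their values on these arrays, although the list was drawn up with earlier results of the same arrays known. A named probe set was found for 38 of the 41, each gene having 1, among 15870 named genes on 18603 probe sets. SLC16A3, PFKFB4 and CA9 had no named probe set and were not analysed here. The mRNA came from MDA-MB-231 cells, an established human breast carcinoma line. Of 4 samples, 2 were of cells with a short hairpin RNA directed at DROSHA, the nuclease that cuts primary microRNA transcripts (shDROSHA). The other two were controls labelled shNC, which the design text calls mock-transfected. Both groups were grown in the same serum-containing medium, and the labels name no oxygen level and no hypoxia treatment. The sources used here do not say whether the hairpin cells were 1 clone or a pool, and p-values measure only the spread between these samples.

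Hypoxia-inducible factor (HIF) is a pair of proteins, an oxygen-labile alpha subunit and a stable partner. In oxygen, prolyl hydroxylases mark the alpha subunit for destruction. Without oxygen it persists, enters the nucleus and binds short elements near genes for glucose transporters, glycolytic enzymes, angiogenic factors and mitophagy receptors. Many of its targets, glycolytic enzymes above all, are also expressed at high level in well-oxygenated tumour cells, so their mRNA is not a measure of HIF activity alone.

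Values are log2 signals from RMA, the authors' array normalization, so a difference of 1 would be a doubling. All signals lay between 3.35 and 13.59, and array medians between 7.21 and 7.25. DROSHA itself was at 8.71 and 8.74 in the shDROSHA arrays against 9.66 and 9.76 in the shNC arrays, 1.98-fold lower. The mesenchymal markers VIM, CD44, AXL, CAV1, MSN and FN1, listed to check the cell line, had signals from 8.03 to 12.09, and 5 measured markers of blood, endothelial and liver cells lay at 6.43 or below. Among luminal genes, ESR1, GATA3, EPCAM and FOXA1 were at 7.20 or below whereas KRT8 was at 11.40 to 11.61. The main test was limma with a prior variance that follows signal, called the trended fit, adjusted over all probe sets by Benjamini-Hochberg, with a threshold of 0.05. Genes are said to have risen or fallen only where they passed it. In these bulk samples, fewer cells expressing a gene and less RNA per cell cannot be told apart.

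Of the 38 measured members, 5 fell, 1 rose and 32 did not pass. With arrays centred on their medians 3 fell and 2 rose, as many as without shNC replicate 2. Those that fell were the mitophagy receptors BNIP3 and BNIP3L, the glycolytic enzymes PFKP and GPI, and the glucose transporter SLC2A1, and the transporter SLC2A3 rose. All 6 differences were small, from 1.18-fold to 1.41-fold. The 6 calls are 15.8% of the members, against 6.41% of all probe sets called in either direction (3.28% lower and 3.12% higher). Signal level moved with this count, and its part was not tested. With probe sets split by signal into 5 groups of equal size, 15.6% of the brightest group were called, and 19 of the 38 members, including all 5 that fell, lie there. Of the next group 8.92% were called, and it holds 10 members, SLC2A3 among them. With 1 constant prior variance for all probe sets limma called 0 members, against 0.00538% of all probe sets. At an unadjusted p under 0.05 that constant fit had 12 members, while 14.9% of all probe sets passed there. Every call of a member therefore rests on letting the spread follow signal.

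**Figure D1:**
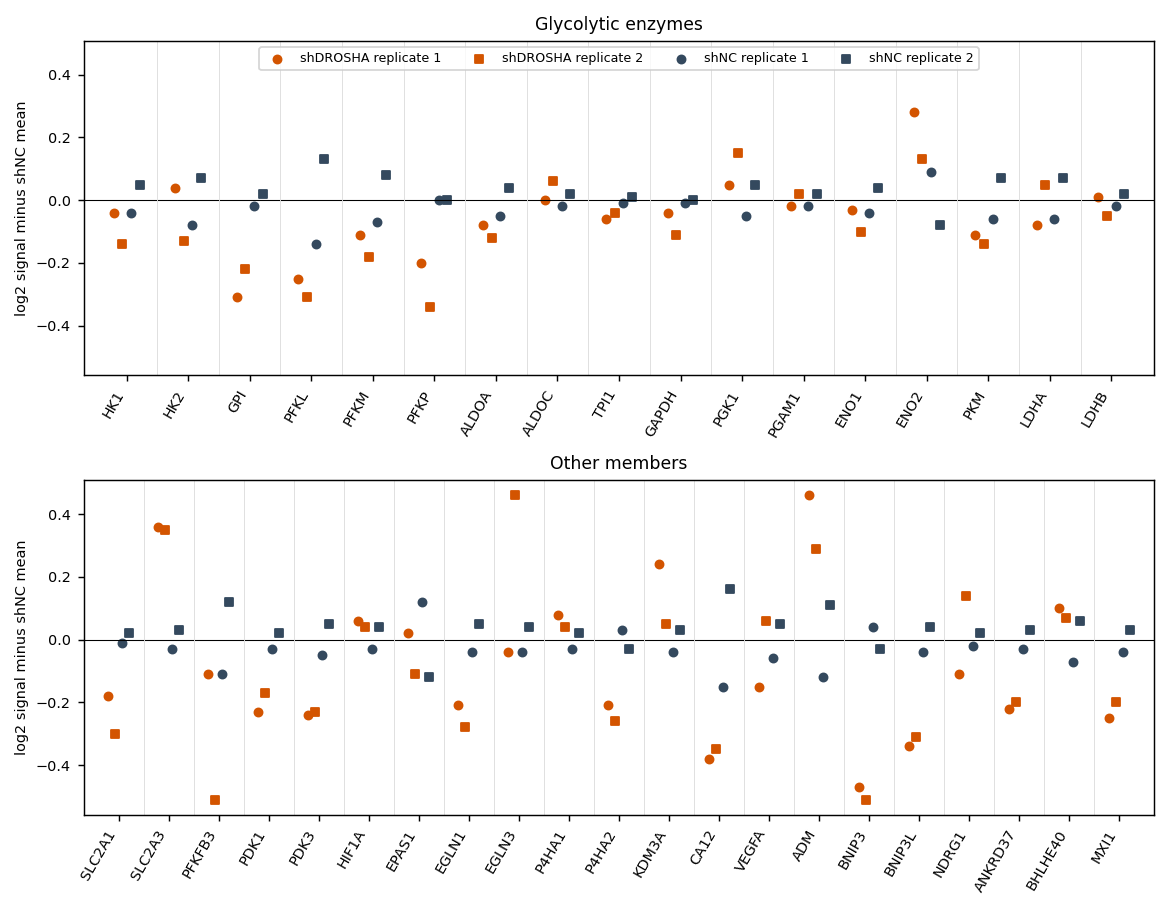
Log2 signal of each measured member on each array, minus the mean of the 2 shNC arrays (vertical axis), for 17 glycolytic enzymes (top) and 21 other members (bottom). Orange points are shDROSHA, dark points shNC, circles replicate 1 and squares replicate 2. The shDROSHA points of BNIP3, BNIP3L, PFKP, GPI and SLC2A1 lie below both shNC points, and those of SLC2A3 above.

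Below the single calls, most members had a negative difference. The difference was below 0 for 26 of 38 members, with a median of -0.067, against 49.8% of all probe sets and a median of 0.001. With each array centred on its median it was below 0 for 24, with a median of -0.034 against 0.034 over all probe sets. Both shDROSHA arrays lay below both shNC arrays for 18 members (47.4%), against 24.4% of all probe sets, and above both for 7 (18.4%), against 23.4%. In either direction 47.8% of all probe sets had groups that did not overlap. The enzymes of glycolysis had a median of -0.066 with 2 of 17 called (11.8%), both lower. Of all probe sets 6.41% were called, and 15.6% in the brightest of the 5 signal groups. That group holds 12 of the 17 enzymes and 7 of the other 21 members. The other 21 members had a median of -0.200 with 3 that fell and 1 that rose (19% called). The means lay closer together, at -0.071 for the enzymes and -0.088 for the others. A negative difference was found for 13 of the 17 enzymes (76.5%) and 13 of the 21 others (61.9%). Whether these 2 sets differ from each other or from all genes was not tested. Relative to the mean of the shNC arrays, the median enzyme was at -0.041 and -0.101 in the shDROSHA arrays and at -0.042 and 0.042 in the shNC arrays. For the enzymes as a set the arrays of the groups thus overlapped. The median of the other members was at -0.145 and -0.170 in shDROSHA and at -0.035 and 0.035 in shNC, with no overlap. In each set the shNC medians mirror each other by construction, since the shNC mean of each gene was subtracted.

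Glucose enters these cells through facilitative transporters. SLC2A1, which encodes GLUT1, the basal glucose transporter of most tumour cells, gave signals of 9.89 and 9.77 in shDROSHA and 10.06 and 10.09 in shNC. It was lower in both knockdown arrays and fell by 0.24 on the log2 scale (SE 0.063, adjusted p = 0.0363). That call was lost with arrays centred on their medians (adjusted p = 0.0764) and without shDROSHA replicate 2, shNC replicate 1 or shNC replicate 2. Over the alternatives its adjusted p ran from 0.00279 to 0.315. SLC2A3, which encodes the high-affinity transporter GLUT3, went the other way. Its signals were 8.95 and 8.94 in shDROSHA and 8.56 and 8.62 in shNC, and it rose by 0.36 (SE 0.079, adjusted p = 0.0148). Both knockdown arrays lay above both controls, but the call was lost without shNC replicate 1 (adjusted p = 0.117, with 0.00928 to 0.208 over the alternatives). Probes for SLC2A3 may also read its close paralog SLC2A14. None of 13 measured genes for other glucose and monocarboxylate carriers passed in the trended limma fit, against 6.41% of all probe sets. The nearest was BSG, which encodes basigin, the chaperone of the lactate carriers, with a difference of -0.17 (SE 0.054, adjusted p = 0.0728).

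The first steps of glycolysis held both enzymes that fell. HK1 and HK2, the hexokinases that trap glucose as its phosphate, differed by -0.09 (SE 0.083) and -0.04 (SE 0.137), and their groups overlapped. GPI, which converts glucose 6-phosphate to fructose 6-phosphate, gave 9.58 and 9.67 in shDROSHA and 9.87 and 9.91 in shNC. It fell by 0.27 (SE 0.065, adjusted p = 0.0245), both knockdown arrays being lower. With arrays centred on their medians its adjusted p was 0.0526. The call was also lost without shDROSHA replicate 1, shNC replicate 1 or shNC replicate 2, and the adjusted p over the alternatives ran from 0.00407 to 0.282.

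Phosphofructokinase, the committed step, has a platelet, a liver and a muscle form. PFKP, the platelet form, gave 11.11 and 10.97 in shDROSHA and 11.31 and 11.31 in shNC, so that the knockdown arrays were the lower ones. It fell by 0.28 (SE 0.052, adjusted p = 0.00566). The call held with arrays centred (adjusted p = 0.0163) and without any 1 array, with 1.33e-06 to 0.285 over the alternatives. PFKL, the liver form, had as large a difference but a wider spread, with 7.52 and 7.46 in shDROSHA and 7.63 and 7.90 in shNC. Its difference was -0.28 (SE 0.118, adjusted p = 0.211), and -0.14 without shNC replicate 2. PFKM, the muscle form, differed by -0.15 (SE 0.078, adjusted p = 0.333). The groups did not overlap for any of the 3 forms, while 47.8% of all probe sets also had groups without overlap (24.4% lower).

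None of the enzymes further down the pathway passed. ALDOA, TPI1 and GAPDH, which split the hexose and oxidise the products, differed by -0.10, -0.05 and -0.07. GAPDH was at 13.33 and 13.26 in shDROSHA and 13.36 and 13.37 in shNC, close to the top of the array's range (SE 0.031, adjusted p = 0.25, interval -0.14 to 0.00). The ATP-yielding kinase PGK1 differed by 0.10 and the mutase PGAM1 by 0.00 (interval -0.09 to 0.09). ENO1, the main enolase, differed by -0.07 and its neuronal form ENO2 by 0.21 (SE 0.137). PKM, pyruvate kinase, gave 12.06 and 12.03 against 12.11 and 12.24, a difference of -0.13 (SE 0.044, adjusted p = 0.107). It passed with quantile normalization repeated (adjusted p = 0.0311, with 0.0311 to 0.607 over the alternatives). LDHA and LDHB, the subunits of lactate dehydrogenase, both differed by -0.02, with intervals of -0.12 to 0.08 and -0.09 to 0.06, and by 0.01 and 0.02 with arrays centred. ALDOC, the brain aldolase, differed by 0.03. Several of these genes have many pseudogenes, 65 named after GAPDH and 13 after PGAM1 in the RefSeq table, which probes may not separate.

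**Figure D2:**
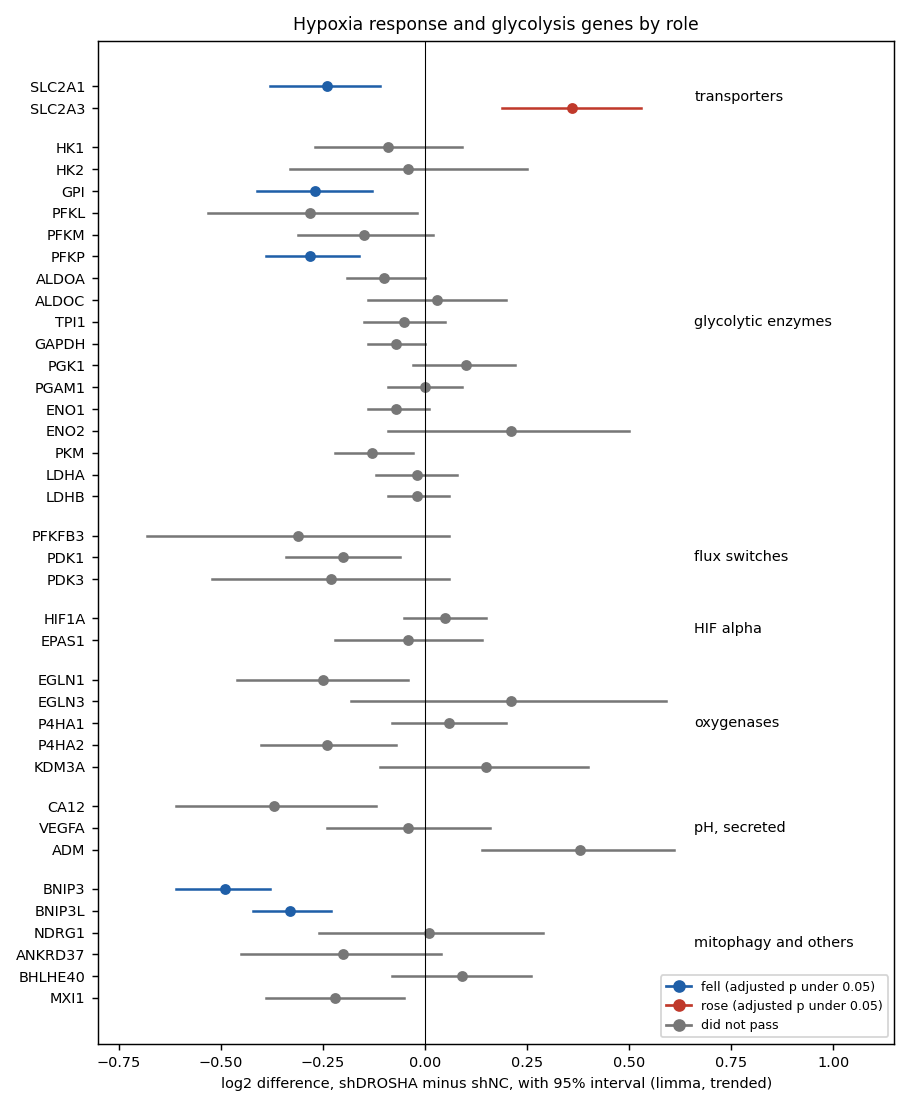
Log2 difference of each measured member, shDROSHA minus shNC, with its 95% interval from the trended limma fit (horizontal axis), by role. Blue marks the 5 members that fell, red the 1 that rose and grey the 32 that did not pass; intervals are widest for dim genes such as EGLN3 and PFKFB3.

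The switches that set how fast glucose is burned and where pyruvate goes had negative differences, none of which passed. PFKFB3, which makes the activator of phosphofructokinase, gave 6.30 and 5.90 in shDROSHA and 6.30 and 6.53 in shNC. The arrays overlapped, and the difference was -0.31 (SE 0.172, adjusted p = 0.364). It was -0.11 without shDROSHA replicate 2 and -0.51 without shDROSHA replicate 1. PDK1, a kinase that shuts pyruvate dehydrogenase and is induced by HIF, gave 9.46 and 9.52 against 9.66 and 9.71. Its difference was -0.20 (SE 0.066, adjusted p = 0.0944) with no overlap. PDK3, a kinase of the same kind, differed by -0.23 (SE 0.135). On a list of 12 other measured genes of pyruvate entry, 2 passed (16.7%, against 6.41% of all probe sets). In the brightest of the 5 signal groups, where 15.6% of probe sets were called, lie 6 of the 12. PDK2, the widely expressed kinase of this family, gave 8.38 and 8.40 in shDROSHA and 9.15 and 9.10 in shNC, so both knockdown arrays were lower. It fell by 0.73 (SE 0.080, adjusted p = 0.000107), 1.66-fold. MPC1, a subunit of the mitochondrial pyruvate carrier, fell by 0.41 (SE 0.067, adjusted p = 0.00239), and its partner MPC2 differed by 0.09 (SE 0.090). Neither PDK2 nor MPC1 passed the constant fit (limma adjusted p = 0.112 and 0.208). PDK4, the starvation-induced kinase of the PDK family, lay in the opposite direction from the others, at 6.42 and 6.75 in shDROSHA and 6.16 and 6.06 in shNC. Both knockdown arrays were higher, and its difference of 0.47 (SE 0.160, adjusted p = 0.103) did not pass. The median difference of the 12 measured genes on this list was 0.068, and besides the 2 that fell 0 rose.

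None of the genes for HIF alpha subunits and HIF prolyl hydroxylases passed. HIF1A, the alpha subunit of HIF-1, was at 11.28 and 11.26 in shDROSHA and 11.19 and 11.26 in shNC. The difference was 0.05 (SE 0.047, adjusted p = 0.664), with an interval of -0.05 to 0.15. EPAS1, the alpha subunit of HIF-2, was at 9.45 and 9.32 against 9.55 and 9.31, overlapping, with a difference of -0.04 (SE 0.084) and an interval of -0.22 to 0.14. These are mRNA levels, and HIF alpha is controlled mainly at the protein level, which was not measured. EGLN1, the chief prolyl hydroxylase of HIF and itself a target, gave 7.99 and 7.92 in shDROSHA and 8.16 and 8.25 in shNC. It was lower in both knockdown arrays without passing (-0.25, SE 0.097, adjusted p = 0.162). EGLN3, an inducible hydroxylase of the same family, differed by 0.21 (SE 0.179), of which 1 array decided the size: its signals were 6 and 6.5 against 6 and 6.08, and the difference was -0.04 without shDROSHA replicate 2.

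The median difference of 20 measured regulators of HIF that are not members was 0.007. Of them 1 rose and 0 fell (5% called, against 6.41% of all probe sets). The brightest of the 5 signal groups, with 15.6% of probe sets called, holds 12 of the 20. The one that rose was ELOC, elongin C of the VHL ubiquitin ligase, at 11.41 and 11.42 in shDROSHA against 11.26 and 11.23 in shNC (0.17, SE 0.044, adjusted p = 0.0359). VHL differed by -0.06 (SE 0.111), ARNT, the stable HIF partner, by -0.11 (SE 0.078) and HIF1AN, the asparaginyl hydroxylase, by -0.21 (SE 0.069, adjusted p = 0.0961). The call of ELOC was lost in the constant fit and with quantile normalization repeated. It was also lost without any of 3 single arrays (shDROSHA replicate 2, shNC replicate 1 or shNC replicate 2).

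None of the other oxygenases that HIF induces passed. P4HA1 and P4HA2 are prolyl hydroxylases of collagen. P4HA1 gave 9.65 and 9.61 in shDROSHA and 9.54 and 9.59 in shNC, a difference of 0.06 (SE 0.065). P4HA2 gave 8.84 and 8.79 against 9.08 and 9.02, a difference of -0.24 (SE 0.077, adjusted p = 0.0922). KDM3A, a histone demethylase, differed by 0.15 (SE 0.119).

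None of the secreted and surface products of the response passed. ADM, the vasodilator peptide adrenomedullin, gave 8.29 and 8.12 in shDROSHA and 7.71 and 7.94 in shNC. Both knockdown arrays were higher, and the difference of 0.38 (SE 0.110, adjusted p = 0.0605) was just short of the threshold. It passed with arrays centred (adjusted p = 0.0436), with quantile normalization repeated, with dim probe sets (under the median signal) left out, and without shDROSHA replicate 2 or shNC replicate 2. Its adjusted p ran from 0.00663 to 0.409 over the alternatives. CA12, a carbonic anhydrase that regulates pH at the cell surface, gave 7.69 and 7.72 against 7.92 and 8.23, a difference of -0.37 (SE 0.115, adjusted p = 0.0797). It passed without shDROSHA replicate 2 (adjusted p = 0.0447) and without shNC replicate 1 (0.0434), and its adjusted p was 0.532 without shNC replicate 2, the highest over the alternatives. VEGFA, the main angiogenic factor of the response, was at 8.46 and 8.67 against 8.55 and 8.66. Its groups overlapped, with a difference of -0.04 (interval -0.24 to 0.16).

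BNIP3 and BNIP3L were the members with the smallest p. Both encode outer mitochondrial membrane receptors that mark mitochondria for mitophagy, and both are classical HIF-1 targets. BNIP3 gave 10.35 and 10.31 in shDROSHA and 10.86 and 10.79 in shNC, or 10.33 ± 0.024 against 10.82 ± 0.049 (log2 mean ± SD, n = 2 each). It fell by 0.49 (SE 0.053, limma adjusted p = 0.000107), 1.41-fold, with an interval of -0.61 to -0.38. BNIP3L, also known as NIX, gave 11.36 and 11.39 against 11.66 and 11.74, or 11.37 ± 0.018 against 11.70 ± 0.063. It fell by 0.33 (SE 0.045, limma adjusted p = 0.00068), 1.25-fold. In both genes the knockdown arrays lay below the controls by more than the replicates differed. Both calls held with arrays centred on their medians. With single arrays left out the differences ran from -0.53 to -0.46 for BNIP3 and from -0.37 to -0.28 for BNIP3L. Neither passed the constant fit (adjusted p = 0.17 and 0.229, the highest over the alternatives for each) or reached 1.5-fold. The RefSeq table holds 46 pseudogenes named after BNIP3 and 0 after BNIP3L, so BNIP3 signal may include their transcripts.

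HIF binds a core of 5 letters, ACGTG or GCGTG, and the promoters of the members were searched for it. The windows come from RefSeq on GRCh38.p14 and run from 250 bases before to 50 after a gene's start. There were 67 windows for 37 of the 41 members, and SLC2A3, VEGFA, BNIP3L and NDRG1 had none. Both cores were searched on both strands, so a CACGTG counts as 2 overlapping matches. At least 1 match was found in 46 of 67 member windows (68.7%), against 48.4% of all 35116 windows in the table. Windows of 1 gene can overlap and share matches. Of the 7 windows of members that fell 5 held a match, and of the 53 windows of members that did not pass 36 did (67.9%). The 7 belong to PFKP, which has several, and to BNIP3, GPI and SLC2A1, so they do not count genes. The only match of SLC2A1 lies after the start. At least 6 matches occurred in 3 member windows, those of BNIP3, HK2 and LDHA, and in 0.92% of all windows. BNIP3 fell whereas HK2 and LDHA did not pass, so a promoter rich in these letters was found with either outcome.

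The 250 bases before the start are printed for those 3 windows and for GPI, which fell and holds 1 match, 5′ to 3′ on the gene's strand with matches to either core on either strand in capitals. BNIP3 is at chr10:131981924-131982173 on the minus strand, HK2 at chr2:74834920-74835169, LDHA at chr11:18394313-18394562 and GPI at chr19:34364742-34364991, these on the plus strand. In BNIP3 all 6 matches lie in the printed stretch, with first bases at positions -143 to -104 from the start, and 2 of them form 1 CACGTG. In LDHA 5 of its 6 lie there.
BNIP3: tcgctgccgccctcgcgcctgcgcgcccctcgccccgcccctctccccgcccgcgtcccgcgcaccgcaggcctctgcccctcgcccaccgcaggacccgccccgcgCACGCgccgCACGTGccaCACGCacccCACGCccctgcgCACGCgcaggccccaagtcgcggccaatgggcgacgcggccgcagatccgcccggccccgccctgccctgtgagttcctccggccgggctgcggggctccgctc
HK2: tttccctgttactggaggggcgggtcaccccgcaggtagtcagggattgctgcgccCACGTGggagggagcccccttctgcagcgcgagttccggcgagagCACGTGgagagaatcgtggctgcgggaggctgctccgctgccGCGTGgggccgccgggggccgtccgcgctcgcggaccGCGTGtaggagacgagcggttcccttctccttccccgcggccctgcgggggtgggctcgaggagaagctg
LDHA: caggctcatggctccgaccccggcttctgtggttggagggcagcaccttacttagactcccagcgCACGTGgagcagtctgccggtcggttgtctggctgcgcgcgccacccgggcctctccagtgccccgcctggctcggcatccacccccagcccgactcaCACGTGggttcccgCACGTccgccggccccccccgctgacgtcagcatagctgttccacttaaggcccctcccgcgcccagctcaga
GPI: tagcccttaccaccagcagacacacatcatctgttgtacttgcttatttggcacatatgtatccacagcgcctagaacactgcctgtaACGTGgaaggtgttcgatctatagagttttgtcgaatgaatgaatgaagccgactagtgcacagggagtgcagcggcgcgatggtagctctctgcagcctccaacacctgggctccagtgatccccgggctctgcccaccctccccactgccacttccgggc
A match is a stretch of letters and not a shown binding site, and binding of HIF was not measured here.

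The remaining members were repressors and stress genes, none of which passed. MXI1, an antagonist of MYC that HIF induces, gave 8.76 and 8.81 in shDROSHA and 8.97 and 9.04 in shNC, a difference of -0.22 (SE 0.078, adjusted p = 0.121). ANKRD37, an ankyrin protein that is a sensitive HIF target, differed by -0.20 (SE 0.116) with no overlap. BHLHE40, a repressor of the clock and of differentiation, differed by 0.09 (SE 0.078), and NDRG1, a stress-induced protein, by 0.01 (SE 0.128).

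**Figure D3:**
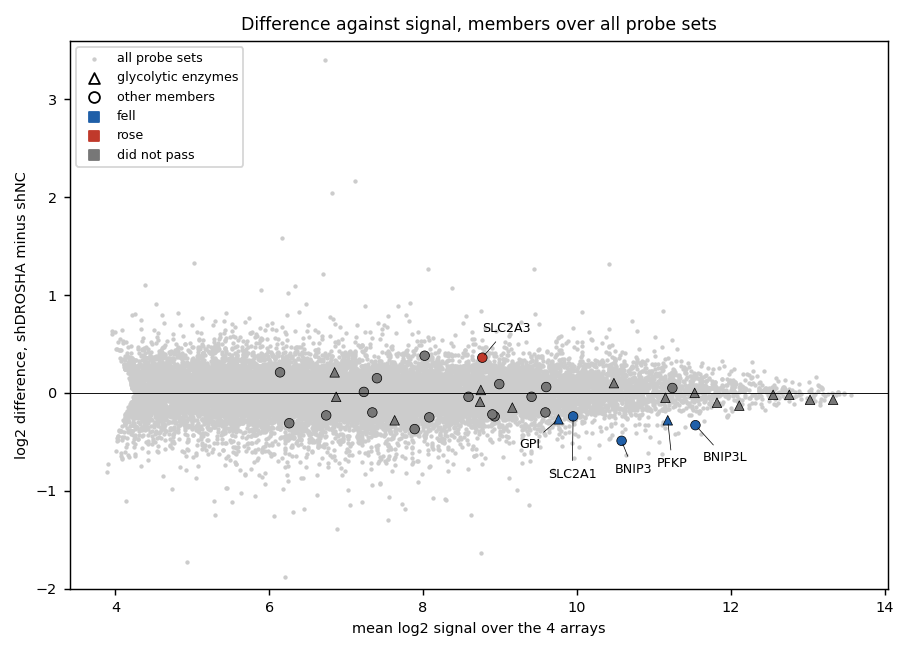
Log2 difference, shDROSHA minus shNC (vertical axis), against mean log2 signal over the 4 arrays (horizontal axis), for all 18603 probe sets (light grey) and the 38 members (triangles, glycolytic enzymes; circles, others). The spread of all probe sets narrows to the right; the 5 members that fell (blue) lie among bright probe sets and SLC2A3 (red) above 0.

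Of the other targets of HIF, 35 genes that are not members were measured, with a median difference of -0.026. Of these 3 rose and 4 fell, 7 calls (20%) against 6.41% of all probe sets, and the other 28 did not pass. STC1, the secreted hormone stanniocalcin, fell by 0.75 (SE 0.107), from 8.46 and 8.47 in shNC to 7.58 and 7.85 in shDROSHA. DDIT4, an inhibitor of mTORC1 induced by low oxygen and other stresses, fell by 0.71 (SE 0.112), from 8.13 and 8.31 to 7.42 and 7.61. RRAGD, a GTPase of amino acid sensing, and CCNG2, a cyclin that restrains growth, fell by 0.53 (SE 0.116) and 0.51 (SE 0.095). In the opposite direction, TFRC, the transferrin receptor, rose by 0.63 (SE 0.050), from 10.47 and 10.46 to 11.07 and 11.11. ERO1A, an oxidase that forms disulfide bonds in the endoplasmic reticulum, rose by 0.57 (SE 0.075). TMEM45A, a membrane protein, rose by 1.33 (SE 0.196), from 4.32 and 4.38 to 5.90 and 5.47, which is dim on this array. Limma adjusted p-values for the 7 were from 7.22e-06 (TFRC) to 0.0145 (RRAGD) in the trended fit. None of the 7 passed the constant fit (limma adjusted p from 0.129 for TMEM45A to 0.206 for ERO1A). The calls of RRAGD and CCNG2 were also lost without shNC replicate 1.

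Over 21 measured isoenzymes and related genes of glycolysis the median difference was -0.020, with 1 call in each direction (9.52%, against 6.41% of all probe sets). PGM2, a phosphoglucomutase and phosphopentomutase, rose by 0.31 (SE 0.067, adjusted p = 0.0132), and GALM, which interconverts the anomers of sugars, fell by 0.48 (SE 0.1, adjusted p = 0.0109). Both calls were lost in the constant fit and without shNC replicate 1, and that of GALM also without shNC replicate 2. Of 10 measured genes of the pentose phosphate pathway 1 rose (10%, against 6.41% of all probe sets called), 0 fell and 9 did not pass. The brightest of the 5 signal groups, with 15.6% of probe sets called, holds 5 of the 10. RPIA, ribose 5-phosphate isomerase, gave 8.17 and 8.11 in shDROSHA and 7.84 and 7.65 in shNC and rose by 0.39 (SE 0.105, adjusted p = 0.0422). That call was lost in the constant fit and without shDROSHA replicate 1, shNC replicate 1 or shNC replicate 2.

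**Figure D4:**
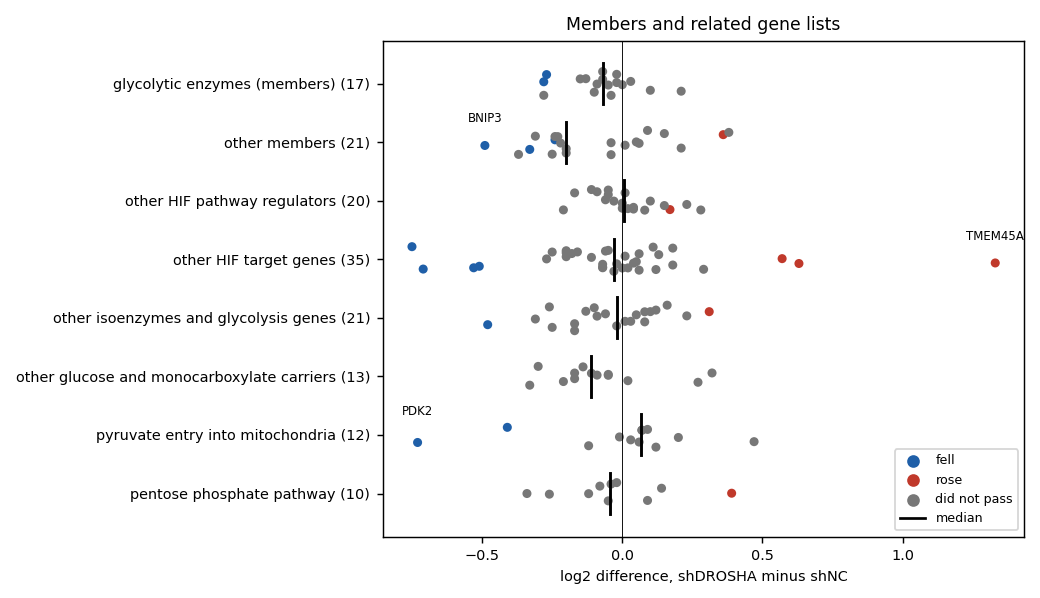
Log2 difference, shDROSHA minus shNC (horizontal axis), of every measured gene in the member lists and 6 related lists, with the number measured in brackets and the median as a black bar; vertical scatter within a list is only to separate points. Blue points fell, red points rose and grey points did not pass; the related HIF targets hold genes on both sides, from STC1 at -0.75 to TMEM45A at 1.33.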

How the data were processed

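Total RNA of 4 samples of MDA-MB-231 cells was hybridised to Affymetrix whole-transcript arrays, and the titles gave groups and replicate numbers. Per probe set, the authors deposited a log2 signal made with RMA, per the submitters' processing notes. The sources used here state neither the software version nor any filter. RMA sets arrays to nearly equal distributions, so a change shared by most genes would not be seen, and changes of dim probe sets are compressed. No detection calls were used, and the number of arrays limits the precision. Probe sets were named through the platform annotation and Entrez identifiers matched to RefSeq (GRCh38.p14). Of these, 15886 were named by 1 gene symbol, and 2717 are unnamed here. Any probe set with several symbols was left unnamed.

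The fit was limma 3.58.1 in R 4.3.3 (lmFit, eBayes with trend) on all probe sets, tested on simulated data. The trend was preferred because the median residual SD fell from 0.171 in the dimmest to 0.0511 in the brightest of 5 equal groups by signal. A constant prior was among 14 alternatives. Members, lists and this choice were made with earlier results of these data known. Every member could be named, and of other lists the genes past the threshold, up to 4 per direction. BSG, MPC2, PDK4, VHL, ARNT and HIF1AN were named after their values were seen. With 2 arrays against 2, an exact permutation test cannot go below p = 0.333 (two-sided), so calls rest on spread pooled over genes. The labels call replicates biological. Deviations of same-numbered arrays correlated at -0.022, so the numbers were not taken as pairs.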

Additional observations from a re-analysis of the deposited data

How the results depend on the processing

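Without the trend, limma called 1 probe set and 0 members (0 glycolytic enzymes and 0 others), and none of the genes on the related lists. At unadjusted p under 0.05 that fit had 12 members and 14.9% of all probe sets. At 1.5-fold or more 245 probe sets and 0 members were called (0 enzymes and 0 others), by construction of a fold minimum above the largest member difference. With no fold minimum, 16 of 38 members and 3599 of 18603 probe sets had an unadjusted p under 0.05 in the trended limma fit. At adjusted p 0.10 there were 1824 probe sets and 10 members, 2 enzymes and 8 others. With arrays centred on their medians 1 enzyme (PFKP) was called in place of 2, while 3 members fell and 2 rose. Of the calls over all probe sets 62.5% were then higher, against 48.7% as deposited. Without probe sets below the median signal the median of the other members was -0.121, over 18 genes in place of 21. Leaving out 1 array in turn gave 535 to 1949 probe sets (lowest when shNC replicate 1 was omitted, highest when shDROSHA replicate 1 was, and 748 when shNC replicate 2 was), 4 to 7 members, 1 to 2 enzymes and 3 to 5 others. The medians then ran from -0.108 to -0.035 for the enzymes and from -0.202 to -0.145 for the others. The array left alone in its group was given the spread of the pair in the other. Calls and counts from these fits are thus not a stricter check than the fit of all 4 arrays. In sign, PGAM1 turned to -0.03 with quantile normalization again, and LDHA and LDHB to 0.01 and 0.02 with centring. With single arrays left out the sign also changed for HK2 (-0.13 to 0.05), ALDOC (0.00 to 0.06), PGAM1 (-0.02 to 0.02), LDHA (-0.08 to 0.05), LDHB (-0.04 to 0.01), EPAS1 (-0.16 to 0.07), EGLN3 (-0.04 to 0.46), VEGFA (-0.14 to 0.07) and NDRG1 (-0.12 to 0.14), none of them called. With the replicate block 6 members and 1391 probe sets were called, and the 6 were the same genes. The mean over a gene's probe sets could not differ, as each member had 1. Apart from the fold minimum, the looser threshold and the fewer genes or arrays that an alternative uses, the cause was not tested. Dim members such as PFKFB3, EGLN3 and ENO2 have the widest errors.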
